A study of Mus musculus with 78 samples.

Results

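The genes described here rose in RNA after 24 h of TRIM28 degradation in mouse embryonic stem cells (ESCs) and were back near their starting level after 96 h. They were selected on the RNA-seq time course itself. A gene was a member when its mean over 3 libraries was at least 5 TPM, a transcript level normalized for length and depth, at 24 h, its ratio (24 h + 1)/(DMSO + 1) was at least 2.5 and its ratio (96 h + 1)/(DMSO + 1) was at most 1.3. Of 54446 annotated genes, 158 met these thresholds, 47 of them were left out because of names that mark predicted genes, microRNAs, mitochondrial or histone genes or Riken clones, and 111 remained. Of the 54446 genes, 17922 were detected well enough to be tested in the time course. The rise at 24 h and the return at 96 h are therefore what defined these genes, and both are given below as description only.

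TRIM28 is a corepressor that KRAB zinc-finger proteins bring to DNA, where it supports histone H3 lysine 9 trimethylation and keeps endogenous retroviruses silent. In ESCs its loss lets retroviral copies of the intracisternal A-particle (IAP), MMERVK and MMETn families be transcribed. Nascent transcription and the amount of stable RNA are different quantities, since RNA also depends on processing and decay, and the study measured both.

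The treated ESCs and their DMSO controls carried Trim28 fused to an FKBP degron in the V6.5 background, so that the compound dTAG-13 directs the TRIM28 protein to the proteasome. The time course held 3 libraries each of DMSO and of 500 nM dTAG-13 for 2, 6, 24 and 96 h, in serum and LIF on gelatin after depletion of feeder cells, sequenced as stranded mRNA. TT-SLAM-seq, which captures RNA made during a short pulse with a thiolated uridine, held 3 libraries each of DMSO and of 2, 6 and 24 h of dTAG-13. A second line, shREPEATS, carried doxycycline (Dox)-inducible short hairpins against retroviral repeats on top of the tagged Trim28, grew on mouse embryonic feeders and was sequenced as stranded total RNA after ribosomal RNA depletion. It gave 3 libraries each of DMSO, dTAG-13 for 24 h and dTAG-13 with Dox for 24 h. The treatment labels give Dox for the third group alone, whereas the protocol text of all 9 libraries mentions a Dox pretreatment, so that the Dox status of the first and second groups rests on the treatment labels. Parental ESCs without the tag, grown on feeders, and tagged neural progenitor cells (NPCs) in DMSO had 3 mRNA libraries each. Chromatin immunoprecipitation (ChIP-seq) after DMSO or 24 h of dTAG-13 covered H3K27Ac and H3K9me3 with 3 libraries per group, and RNA polymerase II (RNAPII) and MED23, a Mediator subunit, with 2 per group. Nothing in the labels ties replicates to separate cultures, so that p-values measure the spread between these libraries.

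The libraries of the time course had a depth, by coverage per TPM, between 0.649 and 1.18 times that of the median RNA library, except the first 24 h library at 0.279. In TT-SLAM-seq the total read count, worked out from the FPKM, ran from 6481999, in the third 24 h library, to 24266191, in the first. Trim28 RNA was between 622 and 626 TPM in DMSO and between 365 and 382 TPM at 24 h. Since dTAG-13 acts on the protein, this RNA level does not check the degradation. The summed level of 5 ESC markers (Pou5f1, Sox2, Nanog, Zfp42 and Dppa5a) was 3278 to 3612 TPM in DMSO, 2149 to 2473 TPM at 24 h and 282 to 323 TPM at 96 h. All 5 had group means over 1 TPM at each time. The summed level of 7 feeder fibroblast markers (Col1a1, Col1a2, Col3a1, Thy1, Postn, Dcn and Prrx1) was 19.8 to 20.7 TPM in DMSO, 24.9 to 27.4 TPM at 24 h and 271 to 296 TPM at 96 h. The 5 primitive endoderm markers (Gata4, Gata6, Sox17, Foxa2 and Dab2) went from 13.9 to 18.1 TPM in DMSO through 25.4 to 26.8 TPM at 24 h to 78.0 to 82.6 TPM at 96 h. The 5 trophoblast markers summed to 25.7 to 27.1 TPM at 24 h and to 210 to 220 TPM at 96 h. For 5 neural progenitor markers the sums were 49.5 to 59.6 TPM at 24 h and 67.4 to 74.5 TPM at 96 h. The cells at 96 h thus expressed less of the ESC markers and more of each other marker list than those at 24 h. The part of these shifts in the return of the members was not tested. In bulk RNA, fewer cells of a type and less RNA per cell cannot be told apart.

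The members were mostly genes of low or moderate expression. Their median level was 4.34 TPM in DMSO, 17.0 TPM at 24 h and 3.06 TPM at 96 h. The median ratio was 2.94 at 24 h and 0.842 at 96 h, and 74 of the 111 genes ended below their DMSO level by this ratio, the lowest at 0.283. At 24 h, 33 members were under 10 TPM and 21 were over 50 TPM. For 109 members every 24 h library was above every DMSO library, which held for 43.9% of the 17922 genes tested, and for 111 every 96 h library was below every 24 h library, which held for 42.7% of the genes tested. Both counts follow from the selection. The exceptions at 24 h were Rn7s1 and Rn7s2. The highest of the 3 libraries at 24 h was the second one for 68 members, the first for 29 and the third for 14.

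**Figure D1:**
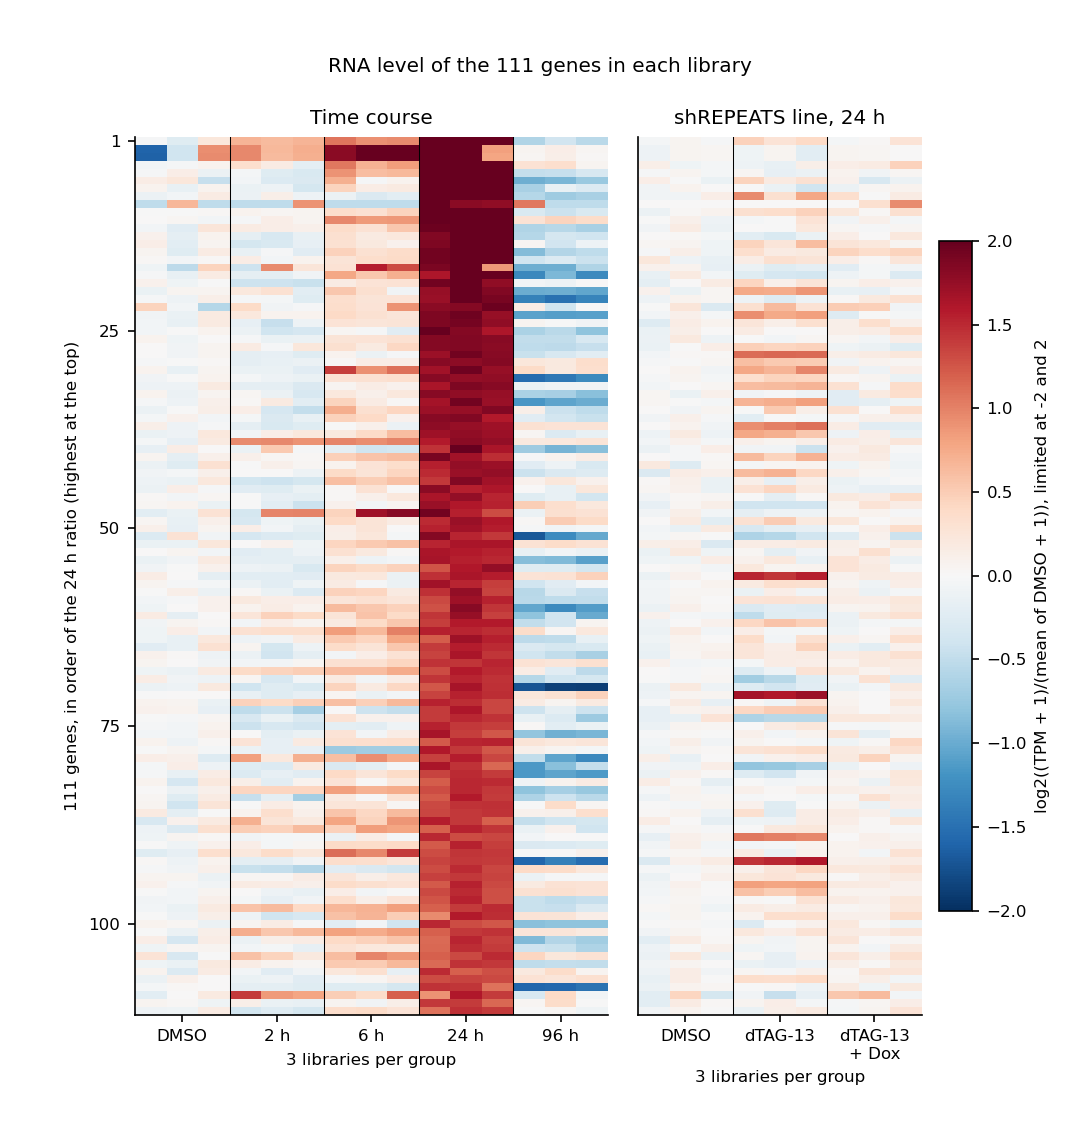
Each row is 1 of the 111 genes, in order of the 24 h ratio, and each column 1 library. Colour gives log2 of (TPM + 1) over the mean of the DMSO libraries + 1 for the time course (left) and the shREPEATS line (right). The 24 h libraries of the time course are red throughout because the genes were chosen that way, whereas in the shREPEATS line few rows reach the same colour with dTAG-13.

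The 15 genes with the highest 24 h ratio held several groups with little in common in function. The highest was Zfp773, a zinc-finger protein gene, with 2.64, 2.13 and 3.32 TPM in DMSO, 22.7, 30.3 and 27.7 TPM at 24 h and 1.44, 1.84 and 1.54 TPM at 96 h. Rn7s2 and Rn7s1, near-identical copies of the RNA of the signal recognition particle, followed. Rn7s2 was at 2.80, 7.83 and 21.1 TPM in DMSO and at 135, 99.0 and 19.4 TPM at 24 h, so that its groups overlapped through the third library of each. The reads of this pair cannot be assigned to either copy, and neither RNA is polyadenylated, so that their level in mRNA libraries is a residue of the capture. In the total RNA of the shREPEATS line, Rn7s2 was between 35535 and 42885 TPM in all 9 libraries.

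Grin1, which encodes a subunit of the NMDA receptor, went from 0.509, 0.683 and 0.412 TPM in DMSO to 7.90, 8.56 and 6.67 TPM at 24 h and to 0.100, 0.117 and 0.235 TPM at 96 h. Carmil3, a regulator of actin capping expressed mainly in brain, went from 1.49, 1.50 and 1.54 TPM to 11.4, 12.4 and 10.4 TPM at 24 h and 1.04, 0.857 and 1.04 TPM at 96 h. Catsperg1, an accessory subunit of the calcium channel of sperm, went from 6.45, 5.58 and 8.14 TPM to 29.0, 38.2 and 32.6 TPM at 24 h and 4.07, 4.26 and 3.92 TPM at 96 h. In these 3 genes the 24 h libraries lay far from all others, and the 96 h libraries lay below every DMSO library. The other members among the 15 were H2-K2, a class I histocompatibility gene, Ndufa4l2, a mitochondrial gene known as a target of low oxygen, Cntd1 and Msh5, both of meiotic crossing over, Bglap3, a relative of osteocalcin, Npcd, the peptide transporter Slc15a2, the DNA glycosylase Neil2 and the butyrophilin-like pseudogene Btnl7-ps. Their 24 h ratios ran from 4.18 for Btnl7-ps to 5.96 for H2-K2. Npcd was listed at 0 in 2 of the DMSO and 2 of the 96 h libraries, and it overlaps the expressed genes Cbx6 and Nptxr on the same strand.

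The highest absolute levels belonged to Txnip, an arrestin-like protein that limits glucose uptake, with 201, 209 and 197 TPM in DMSO, 619, 540 and 480 TPM at 24 h and 217, 210 and 197 TPM at 96 h. Here the 96 h libraries overlapped with DMSO. The thresholds themselves left similar genes on either side. By level at 24 h, AC174678.1 (5.09 TPM), Lag3 (5.13 TPM) and Scarna2 (5.49 TPM) were just inside, and L3mbtl1 (4.83 TPM), Peli3 (4.63 TPM) and Cyp2j13 (4.55 TPM) just outside. By the 24 h ratio, Thap3, Lag3 and Snord89 were just inside, each at 2.501, and Arrdc2 (2.495), Col9a3 (2.494) and Pigyl (2.490) just outside. By the 96 h ratio, Slc15a2 (1.29), Tjp3 (1.28) and Hltf (1.27) were just inside, and Adamts10 (1.31), Fcho2 (1.31) and AC110573.1 (1.31) just outside.

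Of the 111 members, 95 were annotated as protein coding. The commonest chromosomes were 7 with 15 members, 17 with 11 and 3 with 11. The median exonic length was 3841 bp, against 4032 bp over the 12154 tested genes of at least 5 TPM at 24 h, and the median gene span was 13895 bp against 19700 bp. Several members were neighbours, among them Olig2 and Olig1, 41.1 kb apart, Ttyh1 and Leng8, 0.331 kb apart, Paqr6 and Bglap3, 0.075 kb apart on opposite strands, and Tnni3 and Dnaaf3, which overlap. The 3 Duxbl genes lie in a row on chromosome 14 and are close copies. Catsperg1 and Catsperg2 are also related copies, and so are H2-K2, H2-Q5 and H2-Q6, so that reads could be split among copies. Mtcp1 and Cmc4 share a locus and a strand, and Tmem147os is an antisense transcript. Such members are not independent of each other.

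Members were placed in groups by their known roles after their names were seen, and these groups are used as description. The 14 germline and sperm genes comprised, besides Catsperg1, Catsperg2, Msh5 and Cntd1, the channel subunit Catsperd, the RNA-binding proteins Ybx2 and Rbm44, the meiotic kinase Aurkc, Tesmin, Tcp11, Tsga10, Ccdc155, Dnaaf3 and Dnah8. The 10 neuronal and glial genes included the transcription factors Olig1 and Olig2, the channel-related Grin1 and Cacng6, Sncb, Ttyh1, Dclk2, Dnm1, Trim67 and the zinc transporter Slc30a3. The 7 genes labelled low glucose and low oxygen were Txnip, the mitophagy receptor Bnip3, Aldoc, Hif3a, Ndufa4l2, Ndrg2 and the ubiquitin ligase Trim63. This label is loose and does not mean that each of them rises in low glucose or low oxygen. The 6 lipid and peroxisome genes were Phyh, Acot1, Acp6, Cyp27a1, Pla2g4b and Acss1. Smaller groups were 6 genes of the histocompatibility complex or immunity, 4 of DNA repair or replication stress, 4 of RNA processing, 5 small non-coding RNAs and the 3 Duxbl genes, and 52 members were in no group. From 21 lists of pathway and cell type genes, 3 genes were members: Olig2 of the neural progenitor list, Oasl2 of the interferon list and Bnip3 of the hypoxia list. None of the 2-cell, pluripotency, endoderm, trophoblast, imprinted, p53 or sterol synthesis genes of these lists was a member. The summed level of 5 neural progenitor markers was lower at 24 h, with 65.8 to 67.0 TPM in DMSO and 49.5 to 59.6 TPM at 24 h.

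The first question put to data that the selection did not use was whether nascent transcription rose at 24 h. The deposited FPKM are fragments normalized for depth and for the whole gene span with introns. On this scale 50 members were detected well enough to be tested, and 6 of them rose over 2-fold at adjusted p below 0.05 (limma). Among them were Bnip3, Acot1, Txnip, Phyh and Radil. None fell by as much. By any size at adjusted p below 0.05 (limma), 35 of the 50 rose and none fell, against 32.3% and 5.59% of all genes. In either direction, 40 of the 50 had an unadjusted p under 0.05. Over all 13357 genes tested, 2.49% rose and 0.906% fell by this rule. The median log2 change was 0.60 over the members and 0.21 over all genes. Of the 50, 13 passed the filter of 0.5 FPKM in 3 libraries only through the 24 h libraries. Without those, 4 of 37 rose over 2-fold, against 2.09% of all genes under the same restriction.

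Bnip3 gave 0.763, 0.803 and 0.770 FPKM in DMSO, 0.555, 0.524 and 0.551 FPKM at 2 h, 1.17, 1.33 and 1.20 FPKM at 6 h and 3.14, 2.92 and 2.82 FPKM at 24 h. Nascent Bnip3 thus lay below DMSO at 2 h and was highest at 24 h, with no overlap of the 24 h libraries with any other. The log2 change on the log2(FPKM + 0.5) scale at 24 h was 1.44 (SE 0.05, adjusted p = 2.9e-06, limma). Phyh, a peroxisomal hydroxylase of branched fatty acids, gave 0.355, 0.366 and 0.294 FPKM in DMSO and 1.38, 1.33 and 1.63 FPKM at 24 h. Acot1, a cytosolic acyl-CoA thioesterase, gave 1.68, 1.55 and 1.68 FPKM in DMSO and 5.18, 4.39 and 5.47 FPKM at 24 h. Both were separated from DMSO in every library, with log2 changes of 1.21 (SE 0.08) and 1.36 (SE 0.09). Phyh passed the filter on FPKM only through the 24 h libraries, so that its value on this scale is a description.

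Txnip had the highest nascent level of these, with 51.0, 46.5 and 49.3 FPKM in DMSO and 102, 119 and 128 FPKM at 24 h. Its nascent level at 6 h, 38.0, 41.9 and 43.7 FPKM, lay below every DMSO library. Radil, an effector of Rap in cell adhesion, gave 1.25, 1.23 and 0.970 FPKM in DMSO and 3.35, 2.97 and 2.99 FPKM at 24 h. Their log2 changes were 1.23 (SE 0.12) for Txnip and 1.13 (SE 0.08) for Radil.

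The pseudocount holds down the change of genes with few reads, and most members are such genes. Multiplying FPKM by the gene span and a library total gave whole numbers, within 0.1 of a read, for 100% of the values up to 1000 reads in all 12 libraries. The total of each library was itself fitted to the FPKM so that small values became whole. On these recovered reads, an alternative added after the data were seen, 100 members were tested and 58 rose over 2-fold, with none that fell, against 15.5% of 19039 genes that rose and 2.77% that fell. The median log2 change was 1.10 over the members, and it was 0.38 over all genes. With each library centred on its median gene, 32 members rose over 2-fold against 6.42% of all genes, and the medians were 0.73 and 0.00. Of the 100 members, 7 passed the filter of 10 reads in 3 libraries only through the 24 h libraries. Without those 7, 52 of 93 rose before centring and 27 of 93 after it. The same restriction left 14.8% and 5.94% of all genes.

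By recovered reads the largest nascent rises belonged to genes almost silent in DMSO. Grin1 had 4, 11 and 8 reads in DMSO and 140, 132 and 23 reads at 24 h, where the third library was the shallowest. Trim63 had 2, 13 and 16 reads in DMSO and 161, 108 and 44 reads at 24 h. Carmil3 had 4, 4 and 1 reads in DMSO and 40, 59 and 7 at 24 h. Relative to library totals, the log2 changes were 2.89 (SE 0.49) for Grin1, 2.78 (SE 0.41) for Trim63 and 2.81 (SE 0.66) for Carmil3, with SEs that reflect the few DMSO reads. Carmil3 passed the filter on reads only through the 24 h libraries, so that its value is a description. If introns were counted, the reads can include those of overlapping expressed genes on the same strand, such as Papolb for Radil and Camta1 for Per3. Olig2, a transcription factor of the oligodendrocyte lineage, changed by 1.87 (SE 0.42, adjusted p = 0.00067), and Oasl2, an interferon-induced gene of the oligoadenylate synthetase family, by 1.74 (SE 0.18, adjusted p = 4.5e-08), both by limma on recovered reads.

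**Figure D2:**
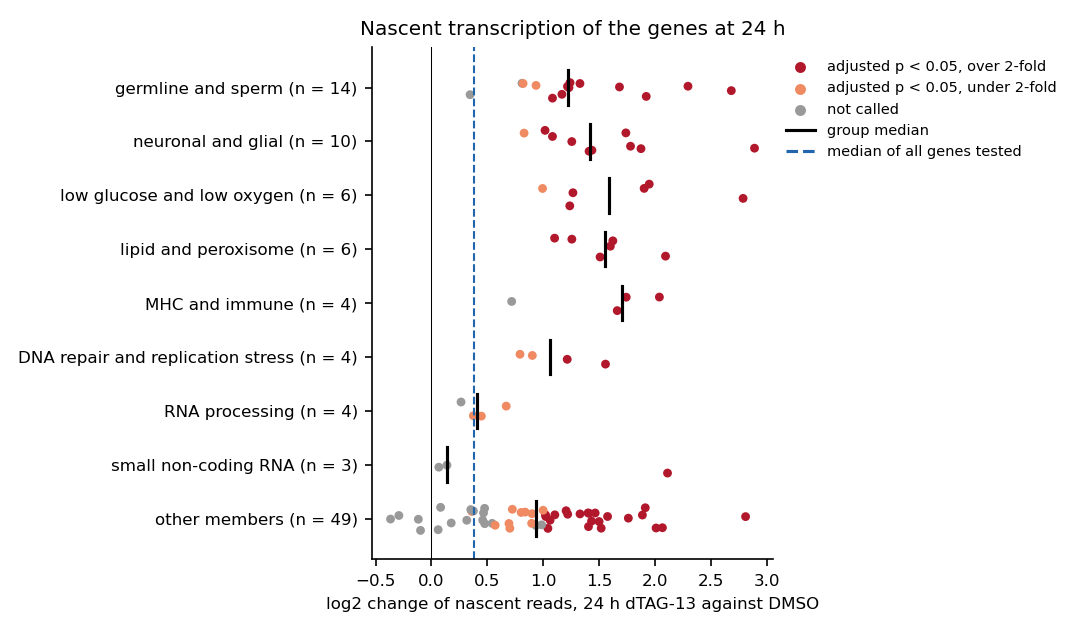
Log2 change of nascent reads at 24 h of dTAG-13 against DMSO, limma on recovered reads, for the 100 members tested; each point is a gene, grouped by known role. The median of the lipid and peroxisome genes lies at 1.55 and that of the RNA-processing genes at 0.41, close to the 0.38 of all genes tested (dashed line).

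By recovered reads, where 15.5% of all genes rose over 2-fold and 6.42% did with centring, all 6 lipid and peroxisome genes did so, from 1.10 to 2.09 on the log2 scale with a median of 1.55. Of 10 neuronal and glial genes 9 did so (median 1.42), and of 14 germline genes 10 (median 1.22). Of the 6 tested genes labelled low glucose and low oxygen, 5 did so (median 1.58). With centring these counts were 4 lipid and peroxisome genes, 4 neuronal and glial genes, 4 germline genes and 3 genes labelled low glucose and low oxygen. Among the germline genes, Cntd1, Catsperg2 and Aurkc rose over 2-fold but passed the filter on reads only through the 24 h libraries. Their values are descriptions, and Cntd1 and Aurkc were still counted after centring. The 4 RNA-processing genes had a median of 0.41, none over 2-fold, and 0.03 after centring. Of the small RNAs, 3 were tested, with a median of 0.14, and Snord89 alone rose, by 2.11 (SE 0.86, adjusted p = 0.045, limma), a call that was lost with centring (adjusted p = 0.11). The Duxbl genes had too few nascent reads to be tested. These comparisons among groups rest on role groups formed after the names were seen and carry no test.

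The RNA-processing genes also stood out early in the RNA-seq. These comparisons share the 3 DMSO libraries with the selection, which biases members towards low DMSO values, so they are not independent of it. Rsrp1, an arginine and serine rich nuclear protein, gave 111, 102 and 129 TPM in DMSO, 220, 223 and 214 TPM at 2 h, 225, 217 and 229 TPM at 6 h, 344, 399 and 388 TPM at 24 h and 130, 132 and 136 TPM at 96 h. Its RNA was raised at the first time point in every library. Over the same times its nascent level was 8.71, 9.28 and 9.70 FPKM in DMSO, 7.76, 8.49 and 7.72 FPKM at 2 h, 7.61, 6.88 and 9.59 FPKM at 6 h and 13.1, 17.4 and 13.1 FPKM at 24 h. At 2 h no nascent library of Rsrp1 lay above its lowest DMSO library.

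Pnisr, a protein related to splicing factors, gave 86.4, 78.7 and 92.4 TPM in DMSO, 116, 115 and 117 TPM at 2 h and 213, 247 and 230 TPM at 24 h. Zfc3h1, which directs nuclear polyadenylated RNA to the exosome, gave 25.3, 23.3 and 27.9 TPM in DMSO, 42.8, 37.5 and 40.6 TPM at 2 h and 59.5, 69.9 and 70.8 TPM at 24 h. Leng8 gave 68.7, 64.9 and 81.0 TPM in DMSO, 107, 111 and 94.5 TPM at 2 h and 166, 189 and 203 TPM at 24 h. In all 4 genes the 2 h libraries lay above every DMSO library. The log2 changes at 2 h were 0.95 (SE 0.07) for Rsrp1, 0.65 (SE 0.07) for Zfc3h1, 0.54 (SE 0.09) for Leng8 and 0.44 (SE 0.06) for Pnisr, with adjusted p from 3.1e-06 to 0.0015 (limma). These genes were singled out after their values were seen.

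**Figure D3:**
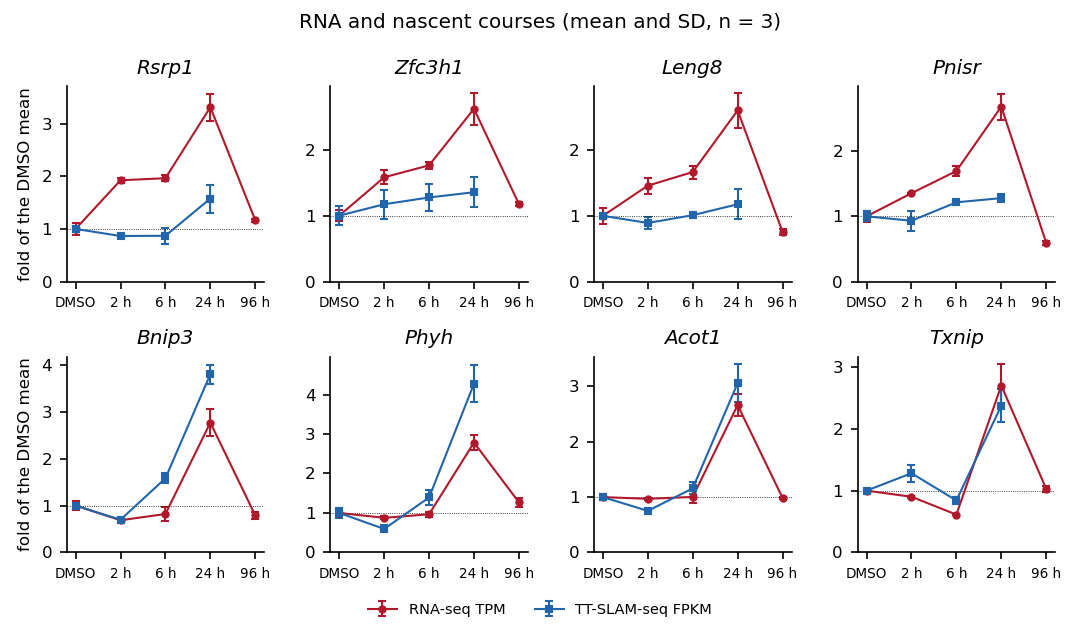
RNA level (TPM, circles) and nascent level (TT-SLAM-seq FPKM, squares) as fold of the DMSO mean, mean and SD of 3 libraries, against time on an axis with unequal steps; TT-SLAM-seq has no 96 h group. In the upper row RNA is above its DMSO level from 2 h and nascent levels change less, and in the lower row both are highest at 24 h.

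Over all members, few had moved by 2 h. At that time 10 rose by any size at adjusted p below 0.05 (limma), against 8.25% of all genes, and 8 fell, against 7.02%. Snord89, a small nucleolar RNA, was the single one over 2-fold, against 0.251% of all genes. The other early risers were Zfp773, AC174678.1, Mtcp1, Cmc4 and Fam129c besides the 4 RNA-processing genes. Among those that fell were Bnip3, by 0.54 on the log2 scale (SE 0.12), Usp11, by 0.51 (SE 0.07), and Hif3a, by 0.46 (SE 0.07).

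At 6 h, 62 of 111 members had risen by any size, against 18.4% of all genes, with a median log2 change of 0.33 over the members and 0.03 over all genes. Over 2-fold were 7 members, against 0.776% of all genes: Rn7s1, Rn7s2, Scarna2, the mitochondrial sirtuin Sirt4, Oasl2, Zfp773 and H2-K2. No member fell over 2-fold, against 0.19% of all genes. By any size 3 fell, against 15.5% of all genes, and 75 members had an unadjusted p under 0.05 in either direction. Oasl2 gave 9.68, 8.21 and 9.58 TPM in DMSO, 8.29, 8.28 and 7.66 TPM at 2 h, 25.4, 18.2 and 20.7 TPM at 6 h and 31.4, 38.2 and 32.9 TPM at 24 h. Its libraries were above DMSO from 6 h on and higher again at 24 h, whereas Txnip RNA at 6 h, with 122, 124 and 125 TPM, had first fallen below DMSO, by a log2 difference of -0.70 (SE 0.07, adjusted p = 1e-05, limma). The other members that fell at 6 h were Rbm44 and Usp11.

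At the early times few members had changed over 2-fold in nascent transcription. At 6 h none of the 50 tested rose over 2-fold on FPKM, against 0.374% of all genes, and 12 had an unadjusted p under 0.05. By any size at adjusted p below 0.05 (limma), 5 rose and none fell, against 7.82% and 1.27% of all genes. On recovered reads 1 of 100 rose over 2-fold, against 1.49%. This was Glb1l2, a relative of beta-galactosidase, whose call was lost with centring. At 2 h, 5 of 100 fell over 2-fold on recovered reads, against 2.47% of all genes. These were Aldoc, Tesmin, Btnl7-ps, Ccdc155 and Rbm44, and after centring Tesmin alone remained, against 1.28% of all genes. By any size, 19 of 100 fell at 2 h on recovered reads, against 8.03% of all genes, and none rose. The median log2 change was -0.38 over the members and -0.17 over all genes, and with centring 10 fell. On FPKM, 6 of 50 fell by any size, against 1.97% of all genes. Across the 100 members, the nascent change at 24 h and the RNA change at 2 h had a Spearman rho of -0.40 and a Pearson r of -0.40, and for the RNA change at 6 h these were -0.37 and -0.32. Genes are not independent, and libraries of the same kind were shared among genes, so these values are descriptions.

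The shREPEATS line asked whether the members respond to TRIM28 loss in a second line, and whether they do so when the hairpins against retroviral RNAs are induced. In that line, 103 members were tested. With dTAG-13 alone 6 rose over 2-fold, among them Phyh, Mep1b, Hltf, Acp6 and Acot1. One, Pdzk1, fell. Over all 16166 genes 2.38% rose and 1.44% fell. With libraries centred on the median gene 4 members rose and 1 fell, against 1.52% and 2.18%. By any size at adjusted p below 0.05 (limma), 36 members rose, against 41.2% of all genes, and 10 fell, against 12.8%. The median log2 change was 0.09 over the members and 0.14 over all genes. Of the 103, 3 passed the filter only through the dTAG-13 libraries, and 5 of the remaining 100 rose over 2-fold, against 1.77% of all genes under that restriction. Most members that rose in the time course therefore did not pass the test in this line, which differed in hairpins, feeders and library preparation, and these cannot be told apart. Feeder markers summed to between 97.9 and 118 TPM in its 9 libraries, and their range overlapped between DMSO and dTAG-13. The ESC markers summed to 1800 to 2108 TPM in DMSO, 859 to 897 TPM with dTAG-13 and 2032 to 2072 TPM with Dox added. Trophoblast markers summed to 45.1 to 49.1 TPM, 58.1 to 61.5 TPM and 45.2 to 47.4 TPM in the same order. The part of these shifts in the changes of the members was not tested.

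Phyh gave 21.3, 24.0 and 23.9 TPM in DMSO, 75.6, 71.7 and 77.6 TPM with dTAG-13 and 24.0, 23.3 and 24.9 TPM with dTAG-13 and Dox. The dTAG-13 libraries stood apart, and those with Dox overlapped with DMSO. Hltf, a helicase-like factor of replication fork remodelling, gave 22.6, 26.1 and 24.8 TPM in DMSO, 71.9, 67.8 and 73.7 TPM with dTAG-13 and 26.2, 27.4 and 27.3 TPM with Dox added. Mep1b, the beta subunit of the metalloprotease meprin, gave 4.39, 5.99 and 6.41 TPM, 16.9, 17.8 and 18.99 TPM, and 6.09, 6.16 and 6.31 TPM in the same order. All 3 therefore had dTAG-13 libraries more than 2 times as high as any other library. On the log2(TPM + 0.5) scale they rose by 1.68 (SE 0.06), 1.52 (SE 0.06) and 1.61 (SE 0.11), with adjusted p = 3.3e-09, 6.4e-09 and 3.9e-07 (limma).

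Acp6, a lysophosphatidic acid phosphatase, gave 33.0, 34.7 and 34.7 TPM in DMSO, 75.5, 77.0 and 76.1 TPM with dTAG-13 and 37.2, 38.4 and 40.0 TPM with Dox added. In this gene the Dox libraries stayed above every DMSO library. Acot1 gave 16.5, 20.2 and 19.5 TPM, 39.9, 38.6 and 37.5 TPM, and 18.8, 20.1 and 19.4 TPM in the same order. Pdzk1, a scaffold protein, went the other way in this line, with 1.28, 1.25 and 1.63 TPM in DMSO, 0.384, 0.410 and 0.510 TPM with dTAG-13 and 1.17, 1.39 and 1.23 TPM with Dox added, although its nascent reads rose at 24 h in the time-course line by 1.50 (SE 0.34) on the log2 scale. Its call was lost when DMSO replicate 3, dTAG-13 replicate 1 or dTAG-13 replicate 2 was left out, since its log2 change of -1.01 lay at the 2-fold limit. It was singled out after its values were seen.

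**Figure D4:**
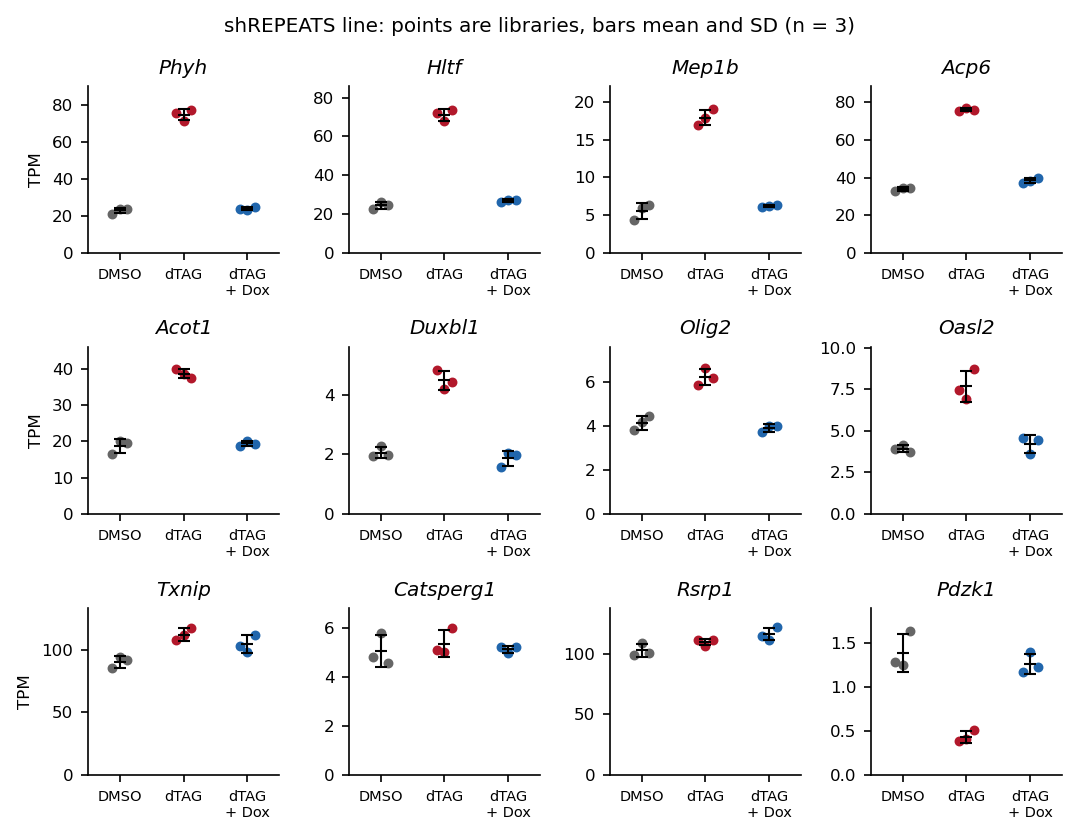
TPM of 12 members in the 9 libraries of the shREPEATS line; points are libraries and bars mean and SD of 3. Phyh, Hltf, Mep1b, Acp6 and Acot1 are high with dTAG-13 alone, whereas Catsperg1 and Rsrp1 have similar levels in all groups and Pdzk1 is low with dTAG-13.

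With Dox added to dTAG-13, 7 members fell over 2-fold relative to dTAG-13 alone, among them Phyh, Mep1b, Hltf and the 3 Duxbl genes, which encode double homeobox proteins. Over all genes 1.96% fell so. None rose over 2-fold, against 1.49% of all genes, with 47 members at an unadjusted p under 0.05 in either direction. By any size 25 members fell, against 29.3%, and 15 rose, against 17.5%. This comparison shares its dTAG-13 libraries with the one against DMSO, so that opposite signs in them are not separate evidence. Phyh fell by 1.62 on the log2 scale (SE 0.06), Mep1b by 1.46 (SE 0.11) and Hltf by 1.38 (SE 0.06). Duxbl1 gave 1.95, 2.27 and 1.97 TPM in DMSO, 4.85, 4.21 and 4.42 TPM with dTAG-13 and 1.57, 2.05 and 1.98 TPM with Dox added. Between dTAG-13 with Dox and DMSO, no member differed at adjusted p below 0.05 by any size (limma), and 14 had an unadjusted p under 0.05. Of all 16166 genes, 8 rose and 2 fell by any size in that comparison.

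Of the genes that led the time course, several did not pass the test here. Catsperg1 gave 4.79, 5.79 and 4.57 TPM in DMSO and 5.08, 5.01 and 6.00 TPM with dTAG-13, a log2 change of 0.08 (SE 0.10). Rsrp1 gave 99.1, 109 and 101 TPM in DMSO and 111, 107 and 111 TPM with dTAG-13, a log2 change of 0.09 (SE 0.05). Both pairs of groups overlapped in range. Grin1, H2-K2, Cntd1, Ndufa4l2, Npcd, Ccdc155, H2-Q5 and Tesmin were too low to be tested. By role, 6 of 9 neuronal and glial genes rose by any size in this line, against the 41.2% of all genes, among them Olig2 by 0.54 (SE 0.08) and Slc30a3 by 0.84 (SE 0.15), and Sncb fell by 0.72 on the log2 scale. With Dox added 6 of the 9 fell, against the 29.3% of all genes. Of 11 germline genes 2 rose and 1 fell, with a median log2 change of 0.01.

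The positions of MMERVK and MMETn elements that the study listed as full-length were compared with the starts of the members, both in mm10. The listed elements span from 137 to 8842 bp with a median of 4009 bp, so that some are shorter than an intact provirus. Within 100 kb of at least 1 of these 1225 elements lay 16 members, 14.4%, against 7.50% of all genes tested. In order of distance these were Carmil3 at 7.53 kb, Rbm44, Aurkc, Olig1, Catsperg2, Acp6 at 19.7 kb, Zfp773, Phyh at 25.6 kb, Olig2, Pcmtd1, Txnip at 42.6 kb, Scarna9, Ttyh1, Glb1l2, Oasl2 and Leng8. Olig1 and Olig2 were near the same MMETn element, and so were Ttyh1 and Leng8, so that these pairs are not independent. Hltf and Mep1b were farther from these families, and IAP elements were not analysed here.

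The members near an element were counted separately from the others in the shREPEATS line. By any size, 12 of the 16 rose with dTAG-13, 75.0%, and none fell, whereas 24 of the 87 farther ones rose, 27.6%, and 10 fell. Of all 16166 genes of this comparison, 49.7% of the 1174 within 100 kb and 40.6% of the 14992 beyond it rose. With Dox added, 9 of the 16 fell relative to dTAG-13 alone and none rose, against 16 that fell and 15 that rose of the 87. Of all genes, 38.5% fell near an element and 28.6% beyond it. Of the 16 near members 1, and of the 87 farther ones 2, passed the filter only through the dTAG-13 libraries. By recovered reads, nascent transcription at 24 h rose over 2-fold in 14 of 15 members near an element and in 44 of 85 farther away, against 22.4% and 15.0% of all genes. With centring these were 8 of 15 and 24 of 85, against 11.3% and 6.08%. Of the 15, 3 passed the filter on reads only through the 24 h libraries, and of the other 12, 11 rose before centring and 6 after it. These are counts, and no test was made of the difference between near and far members.

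Peaks at the gene starts were counted in each library. To set libraries of unequal peak numbers side by side, the strongest peaks of each were used, 20000 for H3K27Ac, 10000 for H3K9me3 and MED23 and 5000 for RNAPII. An H3K27Ac peak, a mark of active promoters and enhancers, lay within 1 kb of the start of 45, 44 and 48 members in the DMSO libraries and of 34, 46 and 19 in the 24 h libraries. The mean share was 41.1% ± 1.9 in DMSO and 29.7% ± 12.2 at 24 h (SD, n = 3 each; exact permutation p = 0.3, two-sided), and over all tested genes it went from 47.2% to 35.8%. The groups overlapped, since the second 24 h library was as high as DMSO. Without it the mean at 24 h was 23.9%, and without the third, the lowest, it was 36.0%. The smallest p that 3 against 3 libraries can give is 0.1.

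RNAPII peaks lay at the start of 23 and 24 members in DMSO and of 20 and 18 at 24 h, with 26.4% and 19.7% of all genes. MED23 peaks lay at 22 and 23 members in DMSO and at 15 and 15 at 24 h, with 24.5% and 11.6% of all genes. Both shares were lower at 24 h in each library, but 2 against 2 libraries cannot give an exact permutation p below 0.33. No member had one of the strongest H3K9me3 peaks within 1 kb of its start in any of the 6 libraries, against 0.889% of all genes in DMSO and 0.417% at 24 h. Of the genes described, Acp6 had H3K27Ac, RNAPII and MED23 peaks in every library of both groups, whereas Acot1, Mep1b, Olig2 and Zfp773 had none in any. Oasl2 had an H3K27Ac peak in 2 of the 3 libraries at 24 h and in none in DMSO.

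**Figure D5:**
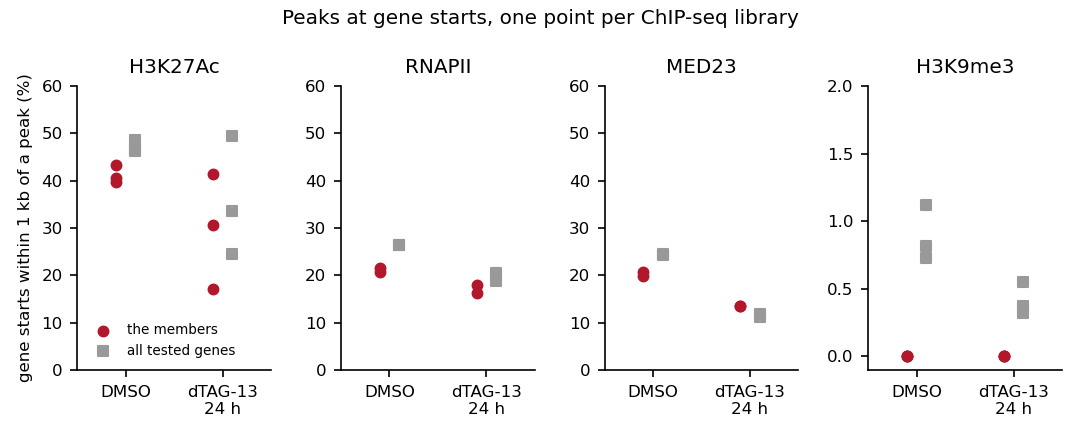
Percent of gene starts with a peak within 1 kb, for the 111 members (circles) and all genes tested (squares), one point per ChIP-seq library, DMSO and 24 h of dTAG-13. The H3K27Ac points at 24 h spread from 17.1% to 41.4% of members, and the H3K9me3 points of members are at 0 on an axis of its own scale.

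The bases upstream of the start are shown for members whose nascent or shREPEATS values carry the comparisons above, with the RefSeq promoters of GRCm38.p6 as source, which matched 80 of the 111 members. Each sequence is the 120 bases before the RefSeq start, 5′ to 3′ on the strand of the gene, and capitals mark matches on either strand to CCAAT, the box bound by NF-Y, or to GGGCGG, the GC box. Phyh and Acp6 hold neither.
Phyh: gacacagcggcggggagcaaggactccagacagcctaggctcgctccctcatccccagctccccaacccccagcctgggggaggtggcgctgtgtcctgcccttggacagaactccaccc
Acp6: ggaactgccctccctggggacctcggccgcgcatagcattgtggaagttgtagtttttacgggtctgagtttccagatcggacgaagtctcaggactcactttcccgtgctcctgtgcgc
Hltf: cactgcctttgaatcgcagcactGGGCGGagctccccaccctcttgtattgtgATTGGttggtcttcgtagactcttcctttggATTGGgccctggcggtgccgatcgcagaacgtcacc
Acot1: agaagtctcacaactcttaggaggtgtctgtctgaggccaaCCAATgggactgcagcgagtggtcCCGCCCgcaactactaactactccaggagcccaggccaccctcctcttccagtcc
Txnip: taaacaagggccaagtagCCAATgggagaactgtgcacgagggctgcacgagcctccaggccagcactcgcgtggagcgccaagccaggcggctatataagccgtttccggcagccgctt
Zfp773: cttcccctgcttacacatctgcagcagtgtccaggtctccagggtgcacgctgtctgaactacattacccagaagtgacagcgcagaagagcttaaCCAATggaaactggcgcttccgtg

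These stretches lie at chr2:4918876-4918995 for Phyh, chr3:97158657-97158776 for Acp6, chr3:20057691-20057810 for Hltf, chr12:84009382-84009501 for Acot1, chr3:96557837-96557956 for Txnip and, on the minus strand, chr7:7136756-7136875 for Zfp773. All are upstream of the annotated first exon, with a gap of 23 bp for Phyh and 12 bp for Acot1. Over whole promoters of 300 bases, 250 before and 50 after the start, CCAAT was present in 39 of the 80 members, 48.8%, against 39.3% of 11292 promoters. GGGCGG was present in 50 members, 62.5%, against 64.6%, and TATAAA in 8, 10.0%, against 7.10%. The E-box CACGTG was present in 3 members, 3.75%, against 10.1%, and the cyclic AMP response element TGACGTCA in 1, 1.25%, against 3.19%. Both strands were searched, none of the motifs contains another, and median GC content was 59.2% in the members and 61.0% in all promoters. A match describes the letters and not the binding of a factor.

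In NPCs, which were not treated with dTAG-13, the members went in both directions relative to parental ESCs. Of 110 tested, 38 were higher over 2-fold, against 30.3% of all genes, and 33 were lower, against 19.1%. With libraries centred on the median gene, 23 were higher, against 20.3% of all genes, and 45 lower, against 32.0%. The 3 Duxbl genes (from 3.95 to 5.27 times on the log2(TPM + 0.5) scale), Acot1 (2.07, SE 0.07), Carmil3 (3.80, SE 0.08) and Olig2 (1.03, SE 0.07) were higher in NPCs. Ndufa4l2 (-5.45, SE 0.22), Bnip3 (-2.46, SE 0.12), Phyh (-1.99, SE 0.03) and Hltf (-1.56, SE 0.08) were lower. Of the 7 genes labelled low glucose and low oxygen, 6 were lower and none was higher over 2-fold. Of the 10 neuronal and glial genes, 5 were higher and 1 was lower. The NPCs carry the tag and a different medium and were free of feeders, so that cell type cannot be told apart from these.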

How the data were processed

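RNA-seq values were the TPM and coverage that the authors deposited per gene and library, made with cutadapt 2.4, STAR 2.7.5a and StringTie 2.0.6 on mm10 per the submitters' processing notes. TT-SLAM-seq values were the deposited FPKM. Multiplying them by gene span and a library total fitted to them gave whole reads, so that the divisor had been the whole gene span. Whether reads in introns were counted is not known from this. ChIP-seq peaks were those the authors called per library, and the fold enrichment over background that they deposited for each peak ranked them. Percent and log2 values were computed here. From TPM and FPKM, limma 3.58.1 in R 4.3.3 (trend, Benjamini-Hochberg) was fitted to log2(value + 0.5) over all genes with at least 1 TPM or 0.5 FPKM in 3 libraries, with all groups of an experiment in 1 fit (time course, TT-SLAM-seq, shREPEATS, and NPC with parental ESC), and a call needed adjusted p below 0.05 and a change over 2-fold unless "any size" is stated. Fold changes on this scale understate the change of low genes. Recovered reads were fitted with limma voom at 10 reads in 3 libraries. Element positions came from the study's list of retroviral copies, as annotation alone. Shares of gene starts with peaks were compared by the exact permutation test over libraries. Members and lists were chosen with earlier results of these data known. Named genes were the 15 with the highest 24 h ratio, the 6 largest called changes in TT-SLAM-seq at 24 h and in each shREPEATS comparison, genes beside each threshold, members of the fixed lists and of symbol families of 3 or more, and Trim28; others were named after their values were seen. One gene that these rules name is not reported here. The script was tested on simulated data. Alternatives were other pseudocounts, filters, centring, the replicate block, each library left out, all peaks, wider windows and recovered reads. The depth of the RNA-seq is known only as relative coverage. The single-cell, 4C and other files were not used here. Figures and values were made with Python 3.11.15 and pandas 2.3.3.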

Additional observations from a re-analysis of the deposited data

How the results depend on the processing

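Of 270 alternative counts and shares, 242 stayed within 1.5 times the reported count or kept their direction, and of 1150 alternative values of called members 1085 stayed called, 65 kept their direction without passing, and none reversed. The count of members that rose in TT-SLAM-seq at 24 h, 6 as reported, depended most on the scale: 17 with a pseudocount of 0.1, 3 with 1, 1 among genes of a mean of at least 5 FPKM, 2 with centred libraries, 58 on recovered reads and 32 on recovered reads with centring. On recovered reads, 1 member rose at 6 h and 5 fell at 2 h, or 1 with centring, where the reported counts were 0. In the shREPEATS line the count that fell with dTAG-13 was 2 with a pseudocount of 0.1 and 0 with 1 or with a mean of at least 5 TPM, and 0 to 1 when single libraries were left out. With Dox against dTAG-13, 1 rose with a pseudocount of 0.1, and 4 fell with a pseudocount of 1 and 3 with a mean of at least 5 TPM. In the time course, the 2 h rise was 0 with a mean of at least 5 TPM and 0 to 2 when single libraries were left out (0 without DMSO replicate 1 or 2 h replicate 1, 2 without DMSO replicate 3), and 12 rose at 6 h with a pseudocount of 0.1. In NPCs 23 were higher with centring and 11 lower with a mean of at least 5 TPM. With all deposited peaks or a 5 kb window, the share of members with an H3K9me3 peak differed by -4.50 or -3.90 percentage points (exact permutation p = 0.1 for each, the smallest possible). Over all genes it went from 4.60% to 1.85% and from 2.85% to 1.11%. All deposited peaks gave -27.5 points for RNAPII and -56.3 for MED23 in the members. The shares of all genes then went from 54.3% to 29.5% for RNAPII and from 73.9% to 23.7% for MED23. Within 250 kb of an element lay 27 members, 24.3%, against 16.5% of all genes tested. The number of members ran from 79 to 133 over other selection settings and from 95 to 118 without single libraries.

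Same-numbered replicates did not visibly deviate together: their correlations ran from -0.20 to 0.18. Whether same-numbered libraries were prepared together cannot be told from this. With the replicate block every count of calls was as reported except in NPCs, where 35 members were lower in place of 33. The few nascent reads of most members in DMSO limit the precision of their changes, and the shallow first RNA-seq library and the third TT-SLAM-seq library at 24 h limit it further.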

Other observations

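The 47 genes left out by name met the same thresholds. Gm24339, a small nucleolar RNA gene, went from a mean of 2.72 TPM in DMSO to 25.6 TPM at 24 h and 1.32 TPM at 96 h. The antisense gene Gm29439 went from 0.294 TPM to 8.01 TPM and 0.228 TPM, and the lncRNA 2900052L18Rik from 5.02 TPM to 28.2 TPM and 6.31 TPM. These genes were singled out after their values were seen, and no test was made on them.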
